A study of Mus musculus with 24 samples.

Results

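Gad1, Gad2 and Slc32a1, which encode the enzymes that make the inhibitory transmitter GABA and the transporter that loads it into vesicles, were followed together with Dlx1, Dlx2, Dlx5 and Dlx6, 4 homeobox genes of the GABAergic lineage of the forebrain. These 7 genes were taken by name, each from probe sets annotated to that symbol alone, out of 19938 genes so annotated on the array. The cells were mouse embryoid bodies, floating and later plated aggregates of differentiating cells, grown from 46C embryonic stem cells, a line known for a GFP reporter at its Sox1 locus, in 3 independent differentiation experiments. Untreated embryoid bodies were collected on days 4, 6, 8 and 12, with 3 arrays a day, and no vehicle is named for them. The treated groups were collected on the same days, again with 3 arrays each, and had received FK506 at 100 ng/ml together with cyclosporin A at 1 ug/ml from day 3 to day 8. Both compounds bind immunophilins, and the complexes inhibit the calcium-dependent phosphatase calcineurin; since the 2 were only given together, their separate effects cannot be told apart. The day 4, 6 and 8 samples were therefore taken during or at the end of exposure and the day 12 samples after it. With and without drugs, the protocol had plating on tissue culture dishes on day 7. It changed serum-supplied stem cell medium for serum-free medium on day 8, so the end of exposure and the change of medium fell together. The day 4 and day 6 samples were collected before both steps. The series title places the comparison in the question of how calcineurin acts on neural induction and BMP signalling.

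Gad1 and Gad2 encode the 2 glutamate decarboxylases, which turn glutamate into GABA with pyridoxal phosphate as cofactor; Gad1 supplies most cell-wide GABA, and Gad2 is found largely at nerve terminals. Slc32a1 encodes the vesicular GABA and glycine transporter. The Dlx genes lie in convergently transcribed pairs, Dlx1 with Dlx2 and Dlx5 with Dlx6, and in the embryonic ventral telencephalon Dlx1 and Dlx2 come on first and act upstream of Dlx5 and Dlx6 and of Gad genes. None of these genes belongs to one cell type alone. Dlx genes are also known in branchial arch mesenchyme, limb ectoderm and placodes, Gad genes in endocrine pancreas, and Gad1 and Gad2 in GABAergic neurons of midbrain, hindbrain and spinal cord that use other selector genes than Dlx.

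The sequence just before the start site is shown for 3 genes, as examples of the E-box motifs found there. RefSeq promoters (build GRCm38.p6) were available for 5 of the 7 genes; Dlx5 and Dlx6 are named only. The 250 bases upstream of Dlx2, at chr2:71546755-71547004 on the minus strand, are printed whole because they hold the letters CACGTG at 2 places, an E-box type found in 6.02% of 32851 promoters of that length. E-boxes are the letters bound by basic helix-loop-helix factors, the class that includes proneural proteins. The capitals mark CACGTG.
Dlx2: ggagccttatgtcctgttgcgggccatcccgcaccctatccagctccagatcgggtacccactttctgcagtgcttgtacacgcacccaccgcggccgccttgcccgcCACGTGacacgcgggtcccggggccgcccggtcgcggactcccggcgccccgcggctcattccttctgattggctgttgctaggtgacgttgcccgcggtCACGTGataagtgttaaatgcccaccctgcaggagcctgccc
Gad1 and Slc32a1 each held the E-box CAGGTG, read on the opposite strand as CACCTG, which 17.2% of promoters hold. The 30 bases around it, at chr2:70562013-70562042 for Gad1 and chr2:158610513-158610542 for Slc32a1, both on the plus strand, are given with that motif in capitals.
Gad1: gaggcagtcagaCACCTGcaaaggagcccc
Slc32a1: tctagagactctCACCTGtctgtcctgttg
Any E-box, CANNTG, of which the 2 above are cases, occurred in 4 of the 5 windows and in 66.2% of all promoters; Dlx1 had none. The homeodomain core TAAT occurred at 2 places in the Gad1 window and in none of the other 4, against 54.9% of promoters. GGAAA, the core bound by NFAT factors, which calcineurin activates, was present in the Gad2 window alone, against 55.6% of promoters. These windows were rich in G and C, from 58.0% for Gad1 to 68.0% for Dlx1, with a median of 52.4% over all promoters. All motifs were searched on both strands, and a match describes letters in this window only.

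Expression was read as the deposited log2 signal of each probe set, where each unit is a doubling. Median signals of the 24 arrays lay between 7.80 and 7.88, and no pair of arrays held identical values. Each of the 7 genes was represented by 1 probe set. Gad1 averaged 8.37 over all arrays, near the median gene at 8.26, and the other 6 genes averaged 7.0 to 7.48, below the 40th percentile of genes at 7.61. No detection calls accompany the values, so whether the lowest signals exceed background cannot be stated, and levels are compared within a gene only. Differences between groups were tested with limma across all 19938 genes, and "rose", "fell", "higher", "lower" and "passed" refer to genes with a Benjamini-Hochberg p-value, adjusted over all genes, under 0.05. As a check on the cells, neural and pluripotency genes were counted in untreated embryoid bodies from day 8 to day 12. Over this step 13 of 15 neural progenitor genes and 15 of 17 pan-neuronal genes rose, and 10 of 10 pluripotency genes fell. The calcineurin target Rcan1, often used as a readout of the phosphatase, differed by 0.04 at day 8 (adjusted p = 0.831) and did not pass the test. Its treated and untreated means were 9.68 and 9.60 on day 4, 9.91 and 9.83 on day 6, and 9.75 and 9.96 on day 12.

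Gad1, the gene of the main cytosolic glutamate decarboxylase, was at its highest in the middle of the course. In untreated embryoid bodies its 3 arrays read 8.19, 8.10 and 8.15 on day 4, 8.79, 8.86 and 8.87 on day 6, 8.38, 8.52 and 8.54 on day 8, and 8.32, 8.33 and 8.32 on day 12. In treated embryoid bodies they read 8.18, 8.27 and 8.27 on day 4, 8.78, 9.09 and 9.11 on day 6, 7.74, 8.30 and 8.06 on day 8, and 7.95, 7.89 and 7.96 on day 12. Day 6 was therefore the peak with and without the drugs, and the 2 day 6 groups overlapped. Untreated day 8 came next in order, then untreated day 12, each without overlap with its neighbours. The remaining groups followed as treated day 4, untreated day 4, treated day 8 and treated day 12, and each of these overlapped the next.

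Gad2, the gene of the terminal-associated decarboxylase, separated the groups differently. Untreated arrays read 6.78, 6.78 and 6.82 on day 4, 6.90, 6.85 and 6.88 on day 6, 7.61, 7.25 and 7.60 on day 8, and 7.59, 7.45 and 7.49 on day 12. Treated arrays read 6.94, 6.57 and 6.60 on day 4, 6.82, 6.67 and 7.02 on day 6, 6.78, 6.92 and 6.88 on day 8, and 6.85, 7.11 and 6.92 on day 12. The 6 untreated arrays of days 8 and 12 lay above all other 18 arrays. Among the remaining 6 groups, with means from 6.70 to 6.96, every group overlapped the next one in order.

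Slc32a1, the vesicular transporter, had the narrowest range of group means of the 7 genes, 0.50. On untreated arrays it read 7.54, 7.40 and 7.48 on day 4, 7.20, 7.13 and 7.07 on day 6, 7.75, 7.41 and 7.32 on day 8, and 7.35, 6.96 and 7.30 on day 12. On treated arrays it read 7.58, 7.39 and 7.35, then 7.00, 7.09 and 6.90, then 7.21, 7.24 and 7.19, and on day 12 7.25, 7.30 and 7.37. Both day 6 groups were low, and in the order of the 8 groups only treated day 12 and treated day 8 failed to overlap as neighbours. Its untreated mean was 7.49 on day 8 and 7.20 on day 12.

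**Figure D1:**
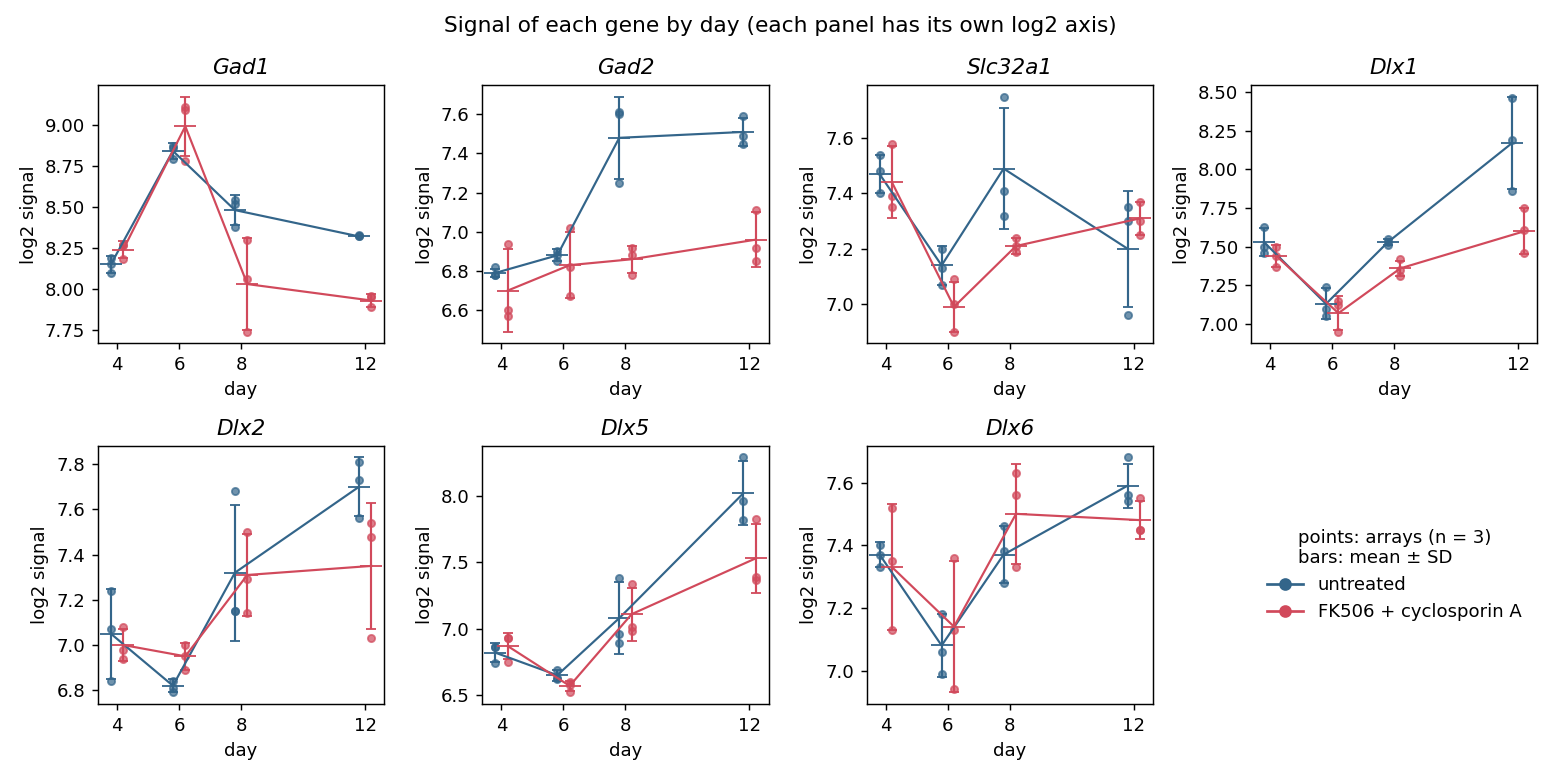
Log2 signal of the 7 genes (vertical axes, one scale per panel) against day of differentiation, with points for the 3 arrays of a group and bars for the mean ± SD, untreated in blue and treated with FK506 and cyclosporin A in red. Gad1 peaks on day 6 in both series, Gad2 separates by treatment from day 8, and Dlx1, Dlx2 and Dlx5 are highest in untreated embryoid bodies on day 12, with group means of 8.17, 7.70 and 8.02.

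Dlx1, a homeobox gene of ventral forebrain progenitors, was highest in untreated day 12 embryoid bodies. Untreated arrays read 7.63, 7.50 and 7.46 on day 4, 7.24, 7.10 and 7.05 on day 6, 7.53, 7.55 and 7.51 on day 8, and 8.46, 7.86 and 8.19 on day 12. Treated arrays read 7.44, 7.50 and 7.37, then 6.95, 7.15 and 7.12, then 7.35, 7.42 and 7.31, and on day 12 7.46, 7.61 and 7.75. The untreated day 12 arrays stood clear of all others, and both day 6 groups lay below all the rest. The next 5 groups, from treated day 12 at 7.60 to treated day 8 at 7.36, each overlapped its neighbour.

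Dlx2, its partner in the same locus, spread more between arrays. Untreated arrays read 7.24, 6.84 and 7.07 on day 4, 6.84, 6.81 and 6.79 on day 6, 7.68, 7.15 and 7.15 on day 8, and 7.73, 7.56 and 7.81 on day 12. Treated arrays read 6.94, 7.08 and 6.98, then 6.95, 7.00 and 6.89, then 7.14, 7.29 and 7.50, and on day 12 7.03, 7.54 and 7.48. The untreated day 12 group was again highest and clear of treated day 12, though its arrays overlapped untreated day 8 through the single reading of 7.68.

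Dlx5 had the widest range of group means, 1.45. Untreated arrays read 6.86, 6.86 and 6.74 on day 4, 6.63, 6.62 and 6.69 on day 6, 7.38, 6.89 and 6.96 on day 8, and 7.96, 8.29 and 7.82 on day 12. Treated arrays read 6.93, 6.75 and 6.93, then 6.58, 6.60 and 6.52, then 7.34, 7.01 and 6.98, and on day 12 7.39, 7.83 and 7.37. The 2 day 12 groups had the highest means, and they overlapped by the treated reading of 7.83 against the untreated reading of 7.82.

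Dlx6, the partner of Dlx5, moved little: its group means spanned 0.51. On untreated arrays it read 7.37, 7.33 and 7.40 on day 4, 7.06, 6.99 and 7.18 on day 6, 7.46, 7.38 and 7.28 on day 8, and 7.54, 7.56 and 7.68 on day 12. On treated arrays it read 7.52, 7.13 and 7.35, then 6.94, 7.36 and 7.13, then 7.56, 7.63 and 7.33, and on day 12 7.45, 7.55 and 7.45. In the order of its 8 groups every group overlapped the next. Of the other genes of the family, Dlx3 had group means from 7.95 to 8.29 and Dlx4 from 7.05 to 7.24, and Dlx6os1 was not analysed here.

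In untreated differentiation the first step, day 4 to day 6, brought a rise of Gad1 and a dip in several of the others. Gad1 rose by 0.69 (SE 0.10, adjusted p = 1.64e-05), a 1.62-fold change. Slc32a1 fell by 0.34 (adjusted p = 0.0111), Dlx1 by 0.40 (0.00461) and Dlx6 by 0.29 (0.0281), whereas Gad2, Dlx2 and Dlx5 differed by 0.09, -0.23 and -0.17 and did not pass. Of all genes, 21.1% rose and 20.9% fell over this step. The share was different among the 1652 genes whose mean signal lay in the range of the 6 dimmer genes here: 38.9% of them fell, 7.20% rose and their median difference was -0.20, so many genes of like signal fell over the same step, and its part in the falls of Slc32a1, Dlx1 and Dlx6 was not tested. The fall of Dlx6 was lost under quantile normalization (adjusted p = 0.0586) and without any one of 4 of the 6 arrays (highest 0.108, without untreated day 6 replicate 2).

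From day 6 to day 8 all 7 genes changed in untreated embryoid bodies, 6 upwards and Gad1 downwards. Gad2 rose by 0.61 (SE 0.10, adjusted p = 0.000195), or 1.52-fold. Its rise was the largest, ahead of Dlx2 at 0.51 (0.00679), Dlx5 at 0.43 (0.0167), Dlx1 at 0.40 (0.00576), Slc32a1 at 0.36 (0.00932) and Dlx6 at 0.29 (0.029). Gad1 fell by 0.36 (adjusted p = 0.00806). Against all genes, of which 17.8% rose and 18.3% fell, 31.8% of the genes of like signal rose, with a median of 0.17. Untreated day 8 replicate 1, the highest array of its group for Slc32a1, Dlx2, Dlx5 and Dlx6, carried some of these calls: without it the adjusted p was 0.0926, 0.0705, 0.139 and 0.12 for those 4 genes. That of Dlx6 was also lost under quantile normalization (0.0815) and without untreated day 6 replicate 1 (0.0666), day 6 replicate 2 (0.115) or day 8 replicate 2 (0.0632), and that of Dlx5 without untreated day 6 replicate 2 (0.0537), while those of Gad1, Gad2 and Dlx1 passed under each alternative run.

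From day 8 to day 12 Dlx1, Dlx2 and Dlx5 went on rising in untreated embryoid bodies, and Dlx6 and the 3 GABA genes did not pass as risen. Dlx5 rose by 0.95 (SE 0.13, adjusted p = 6.81e-06), or 1.93-fold, Dlx1 by 0.64 (4.76e-05), or 1.56-fold, and Dlx2 by 0.38 (0.0333), or 1.30-fold, beside 18.8% of all genes and 18.3% of genes of like signal that rose. Dlx6 differed by 0.22 (0.0892), Gad2 by 0.03 (95% confidence interval -0.19 to 0.25) and Gad1 by -0.15 (0.237), none of which passed. The Dlx6 difference did pass with array weights (0.0372) and with only the compared groups (0.0494). Slc32a1 fell by 0.29 (0.0273), beside 19.9% of all genes. The calls of Dlx2 and Slc32a1 were lost under 5 and 4 of the alternatives, with adjusted p up to 0.156 for Dlx2 without untreated day 8 replicate 2 and up to 0.22 for Slc32a1 without untreated day 8 replicate 1. Over the whole course, day 12 against day 4, Dlx5 was 2.3-fold higher (1.2, adjusted p = 6.93e-08), Gad2 1.65-fold (0.72, 3.45e-06), Dlx2 1.57-fold (0.65, 0.000277) and Dlx1 1.56-fold (0.64, 1.73e-05). These 4 rises stood beside 27.0% of all genes that rose and 30.2% that fell. Slc32a1 was 0.27 lower (0.0277), a call lost under 5 alternatives (up to 0.232, without untreated day 12 replicate 2). Gad1 differed by 0.18 (0.136) and passed with array weights (0.0103) and with only the compared groups (0.0446). Dlx6 differed by 0.23 (0.0591) and passed under the same alternatives (0.0045 and 0.0197).

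**Figure D2:**
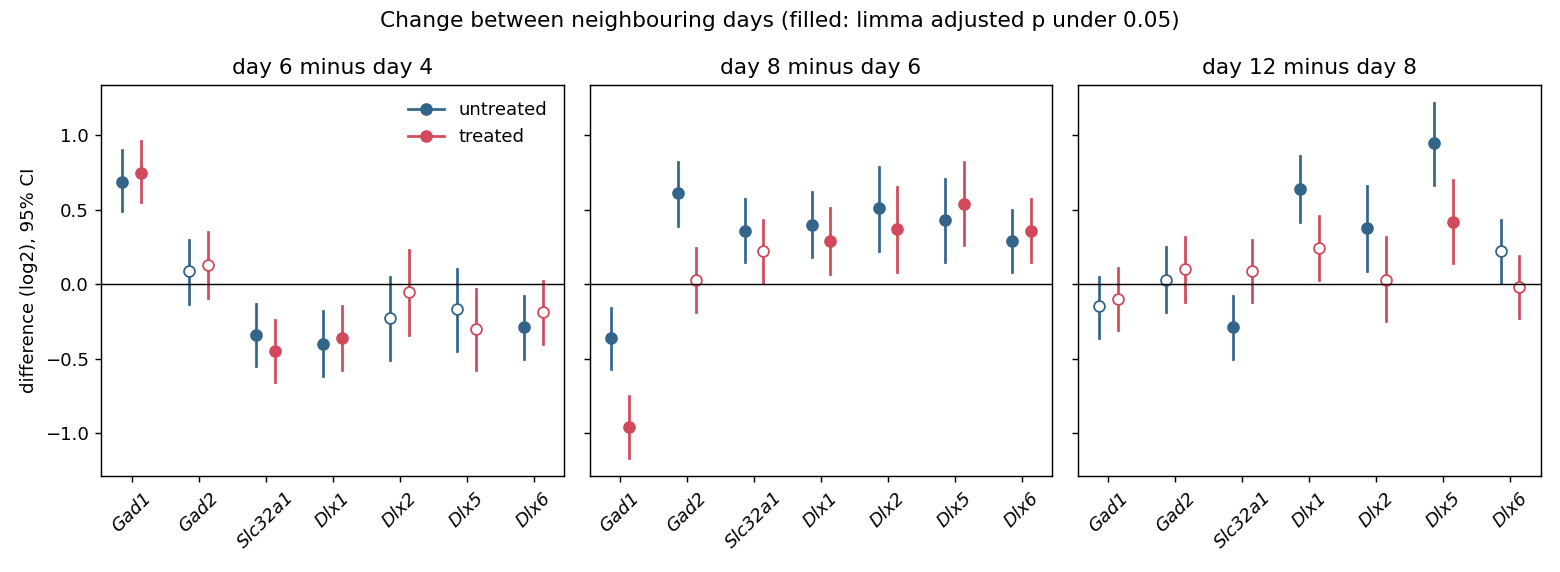
Log2 difference of each gene between neighbouring collection days (vertical axis, later minus earlier day) with its 95% confidence interval from limma, for untreated (blue) and treated (red) embryoid bodies; filled points passed at an adjusted p under 0.05. Gad1 rises and then falls in both series, Gad2 rises between days 6 and 8 in the untreated series (0.61) but reads 0.03 in the treated one, and the untreated day 12 rises of Dlx1 (0.64) and Dlx5 (0.95) have treated counterparts of 0.24 and 0.42. As limma interactions without a replicate block, these differences between the series did not pass (adjusted p = 0.0798 for Gad2, 0.125 for Dlx1, 0.105 for Dlx5).

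Under the drugs Gad1 again rose to day 6 and fell to day 8, while the 4 Dlx genes rose from day 6 to day 8 and Gad2 did not pass. From day 4 to day 6 Gad1 rose by 0.75 (adjusted p = 5.6e-06), beside 19.1% of all genes, and Slc32a1 and Dlx1 fell by 0.45 (0.00139) and 0.36 (0.00867), beside 25.1% of all genes and 44.1% of genes of like signal. From day 6 to day 8 Gad1 fell by 0.96 (SE 0.10, adjusted p = 4.18e-07), or 1.95-fold, beside 24.7% of all genes. Dlx5 rose by 0.54 (0.00248), Dlx2 by 0.37 (0.0362), Dlx6 by 0.36 (0.00668) and Dlx1 by 0.29 (0.0329), beside 16.8% of all genes and 23.3% of those of like signal. Gad2 differed by 0.03 there (95% confidence interval -0.19 to 0.24). Of the 4 rises only that of Dlx5 passed without each array in turn; the largest adjusted p of the others was 0.17 for Dlx2 without treated day 8 replicate 3, 0.14 for Dlx1 and 0.0586 for Dlx6, both without treated day 6 replicate 1.

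After withdrawal, from day 8 to day 12, Dlx5 alone rose in the treated embryoid bodies, by 0.42 (adjusted p = 0.0177), beside 16.5% of all genes. That call was lost when only the compared groups were fitted (0.0802) and without treated day 12 replicate 2 (0.134), treated day 8 replicate 2 (0.07) or treated day 8 replicate 3 (0.0832). Dlx1 differed by 0.24 (0.0822), Gad2 by 0.10 (0.539) and Gad1 by -0.10 (0.525). Against treated day 4, treated day 12 was higher for Dlx5 by 0.66 (0.000193), Dlx2 by 0.34 (0.0362) and Gad2 by 0.26 (0.042), beside 24.6% of all genes, and lower for Gad1 by 0.30 (0.013), beside 30.4%. The calls of Dlx2 and Gad2 were lost without single arrays (adjusted p up to 0.173 and 0.198, both without treated day 12 replicate 2).

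On day 4 and day 6 no difference between treated and untreated embryoid bodies passed for any of the 7 genes. The differences lay between -0.09 and 0.09 on day 4 and between -0.14 and 0.15 on day 6, and limma gave 0 of 7 at an adjusted p under 0.05 and also 0 of 7 at an unadjusted p under 0.05 on each day. Among all genes 0.00502% and 1.84% passed on those days. For Gad2 the 95% confidence interval on day 6 was -0.26 to 0.18, and for Dlx1 it was -0.28 to 0.16.

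On day 8, at the end of exposure, Gad1 and Gad2 were lower in treated embryoid bodies and no Dlx gene passed the test. Gad2 was 6.86 ± 0.07 (SD, n = 3) against 7.48 ± 0.21, a difference of -0.62 (SE 0.10, 95% confidence interval -0.84 to -0.40, adjusted p = 0.00156), or 1.54-fold lower. For Gad1 the means were 8.03 ± 0.28 and 8.48 ± 0.09, 1.36-fold lower in treated cells at -0.45 (SE 0.10, 95% confidence interval -0.65 to -0.24, adjusted p = 0.00841). For both genes every treated array lay below every untreated one, and the same-numbered pairs differed by -0.83, -0.32 and -0.72 for Gad2 and by -0.64, -0.22 and -0.48 for Gad1. That is 2 of 7 genes lower and 0 higher, where 4.08% of all genes fell and 4.86% rose, and 3.81% of the genes with signals like the 6 dimmer genes fell. On the same day 9 of 15 neural progenitor genes and 5 of 17 pan-neuronal genes were lower and none higher, with medians of -0.55 and -0.23, and their part in the Gad1 and Gad2 differences was not tested. In whole embryoid bodies, fewer cells of a type and less RNA per cell cannot be told apart.

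Slc32a1 differed by -0.28 on day 8, with all 3 treated arrays below the untreated ones, as for 14.2% of all genes, and did not pass (adjusted p = 0.0866), although it did with array weights (0.0216) and without untreated day 8 replicate 3 (0.0495). The 4 Dlx genes differed by -0.17 (Dlx1, 95% confidence interval -0.39 to 0.05), -0.01 (Dlx2, -0.29 to 0.27), 0.03 (Dlx5, -0.24 to 0.31) and 0.13 (Dlx6, -0.08 to 0.34). With only the 6 day 8 arrays in the fit neither decarboxylase passed (adjusted p = 0.172 for Gad1 and 0.11 for Gad2). The Gad1 call also ended without treated day 8 replicate 1 (0.0935) or untreated day 8 replicate 2 (0.055).

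**Figure D3:**
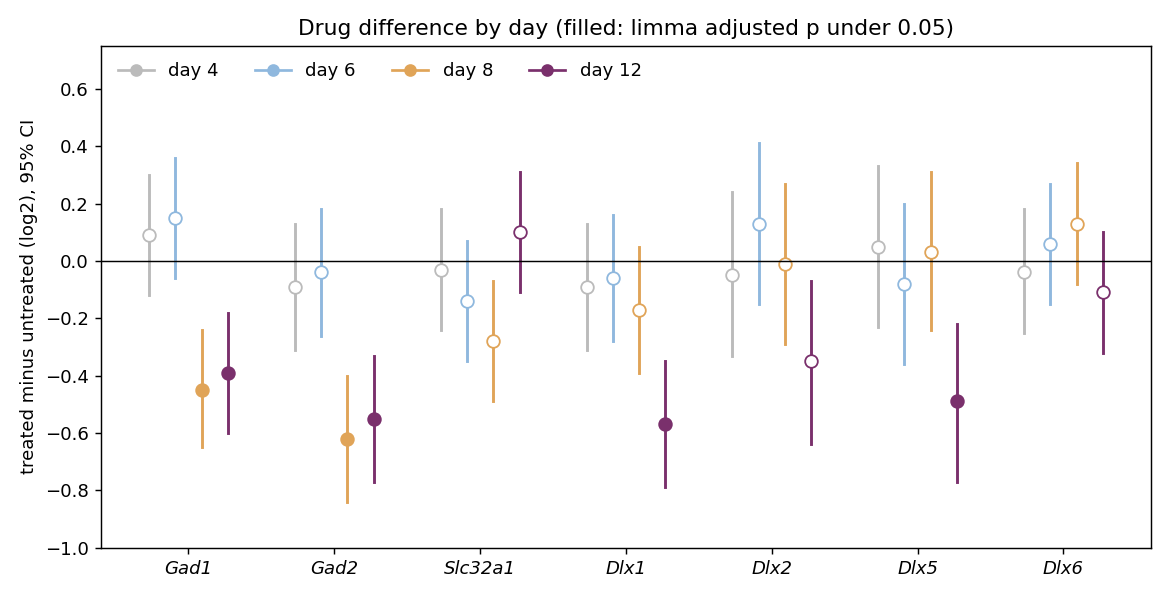
Treated minus untreated log2 difference (vertical axis) of each of the 7 genes on the 4 days, with 95% confidence intervals from limma; filled points passed at an adjusted p under 0.05. The grey and blue points of days 4 and 6 lie between -0.14 and 0.15, Gad1 and Gad2 are lower on days 8 and 12, and Dlx1 and Dlx5 are lower on day 12.

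On day 12, after the drugs had been removed, both decarboxylase genes were still lower in the treated group, and so were Dlx1 and Dlx5. Dlx1 was 7.60 ± 0.15 (SD, n = 3) against 8.17 ± 0.30, a difference of -0.57 (SE 0.11, 95% confidence interval -0.79 to -0.35, adjusted p = 0.00063), or 1.48-fold lower. Gad2 was 6.96 ± 0.14 against 7.51 ± 0.07, 1.46-fold lower at -0.55 (SE 0.10, adjusted p = 0.000776). Gad1 was 7.93 ± 0.04 against 8.32, 1.31-fold lower at -0.39 (SE 0.10, adjusted p = 0.0086). Dlx5 was 7.53 ± 0.26 against 8.02 ± 0.24, 1.41-fold lower at -0.49 (SE 0.13, adjusted p = 0.0121), with overlapping arrays. Its same-numbered pairs were nonetheless alike, at -0.57, -0.46 and -0.45, while those of Dlx1 ran from -1.0 to -0.25. The count was 4 of 7 genes lower and 0 higher, where 10.4% of all genes and 7.63% of genes of like signal fell and 7.49% of all genes rose.

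The remaining 3 genes did not pass on day 12. Dlx2 differed by -0.35 (95% confidence interval -0.64 to -0.07, adjusted p = 0.0792) with all treated arrays below the untreated ones, as for 17.1% of all genes, and passed with array weights (0.035) and without treated day 12 replicate 2 (0.0346). Dlx6 differed by -0.11 (-0.32 to 0.10) and Slc32a1 by 0.10 (-0.11 to 0.31). So the partners within a locus did not give the same calls, although the differences between partners were not tested against each other. The day 12 calls of Gad1, Gad2 and Dlx1 held under every alternative run (highest adjusted p 0.0288, 0.00817 and 0.0343). That of Dlx5 was lost with only the compared groups (0.0652) and without untreated day 12 replicate 2 (0.0997), treated day 12 replicate 1 (0.0702) or treated day 12 replicate 3 (0.082).

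Whether the drug difference itself changed between days was tested as an interaction. Between day 6 and day 8 it moved by -0.60 for Gad1 (SE 0.14, adjusted p = 0.0593) and by -0.58 for Gad2 (SE 0.15, 0.0798), and neither passed, beside 0.401% of all genes that did. Deviations of same-numbered samples correlated on days 6, 8 and 12, weakly in some pairs (r from 0.107 to 0.553). Untreated day 12 replicate 1 correlated more with a treated array of another number (0.264) than with its own (0.118). With the replicate number as a block within each day, the change of the drug difference passed for both Gad1 and Gad2, at adjusted p = 0.00827 and 0.0499. Between day 8 and day 12 it moved by -0.53 for Dlx5 (SE 0.19, 0.105), -0.39 for Dlx1 (SE 0.15, 0.125) and -0.34 for Dlx2 (SE 0.19, 0.299), beside 5.20% of all genes that passed; with the replicate block Dlx5 passed (0.00415) and the other 6 did not. For the decarboxylases that difference moved by 0.06 (Gad1, 95% confidence interval -0.24 to 0.35) and 0.07 (Gad2, -0.24 to 0.38). Neighbouring contrasts share arrays, so these values are not independent of one another.

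The rest of the family showed few changes. Dlx3, best known in ectoderm and placenta, rose in treated embryoid bodies between days 6 and 8 by 0.34 (adjusted p = 0.00205) and fell between days 8 and 12 by 0.32 (0.00469), and its drug difference was 0.19 on day 8 (0.16) and -0.06 on day 12 (0.654). Dlx4 did not pass in any contrast. Dlx1as, a noncoding RNA transcribed from the opposite strand over Dlx1, fell by 0.37 from day 4 to day 6 (0.0121) and rose by 0.33 from day 6 to day 8 (0.0273) in untreated cells, as Dlx1 did, but differed by -0.09 between treated and untreated on day 12 (0.653), where Dlx1 was 0.57 lower.

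Genes that handle GABA once it is made were examined next. Of 11 genes for its uptake, breakdown and precursor supply 9 were measured, and the rest of this and the following lists were not analysed here. On day 12, 4 of the 9 were lower in treated embryoid bodies and none higher, with a median of -0.17 against 0.016 for all genes. Every list count below stands beside 10.4% of all genes lower and 7.49% higher on day 12, 4.08% lower and 4.86% higher on day 8, and 18.8% risen and 19.9% fallen from untreated day 8 to day 12. The 4 were Slc6a11, a plasma membrane GABA transporter, at -0.59 (adjusted p = 0.000387), Got1, an aspartate aminotransferase that yields glutamate, at -0.45 (0.00651), Aldh5a1, which oxidises succinic semialdehyde at the end of GABA breakdown, at -0.44 (0.00889), and Slc38a1, a glutamine transporter, at -0.28 (0.00861). On day 8, 2 of 9 were lower, Got1 by 0.41 (0.0222) and Pdxk, the kinase that makes the pyridoxal phosphate cofactor, by 0.49 (0.00691). In untreated cells from day 8 to day 12, 4 of the 9 rose and 1 fell. Abat, the GABA transaminase, rose 2.03-fold (1.02, 6.28e-07), and Slc6a13, another GABA transporter, 1.65-fold (0.72, 6.64e-07).

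GABA receptor subunits had more members higher than lower in treated cells on day 12. Of 20 listed, 17 were measured. On day 12, 5 were higher and 1 lower in treated embryoid bodies, with a median of 0.18. Gabra3, the alpha3 subunit of the GABA-A receptor, was 10.71 against 8.72, or 3.98-fold higher (adjusted p = 6.18e-06), Gabre was 2.20-fold higher (4.53e-05), Gabbr2, a subunit of the GABA-B receptor, 1.63-fold (0.00227), and Gabrq 1.47-fold (0.00106). On day 8 none was higher and 1 was lower, Gabra4, by 0.60 (0.00296). In untreated cells Gabrb2 (1.18), Gabra2 (0.81), Gabbr1 (0.79) and Gabrg1 (0.27) rose from day 8 to day 12.

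Among regulators of ventral telencephalon and interneurons, 22 of 26 were measured. In untreated embryoid bodies 13 of the 22 rose and 1 fell from day 8 to day 12, with a median of 0.52 against -0.057 for all genes. Erbb4, the neuregulin receptor of migrating interneurons, rose 9.56-fold (3.26, adjusted p = 3.14e-14), and the orphan nuclear receptor genes Nr2f2 and Nr2f1, which mark the caudal ganglionic eminence among other tissues, rose 7.05-fold and 6.09-fold. On day 12, 9 of the 22 were lower in treated cells and 1 higher, with a median of -0.22. Erbb4 was 2.92-fold lower (-1.54, 8.08e-08), Npas3 1.99-fold (-0.99, 9.35e-07), Prox1 1.73-fold (-0.79, 0.000321) and Nkx2-1, the selector of the medial ganglionic eminence and of ventral hypothalamus, 1.57-fold (-0.65, 0.00174). On day 8 the list was mixed, with 3 higher and 4 lower, among them Tshz1 at 1.57 (0.00811) and Sp8 at -0.66 (0.0051).

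Selector genes of GABAergic neurons outside the telencephalon, all 14 measured, had 5 lower and none higher on each of days 8 and 12. Tal2, a selector of midbrain GABAergic neurons, was 2.18-fold lower on day 8 (-1.13, adjusted p = 0.000512) and 1.76-fold lower on day 12 (-0.82, 0.00125). Lhx5 was 0.68 lower on day 8 (0.0133) and 1.25 lower on day 12 (2.25e-05), and Nkx2-2, a ventral neural tube selector of wider use, was 1.55 lower on day 12 (1.2e-08). The list's medians were -0.18 and -0.09. Of 14 interneuron peptide and calcium-binding protein genes, 2 were lower on each day and none higher, beside 4.08% of all genes lower on day 8 and 10.4% on day 12. On day 12 these were Sst, somatostatin, at -0.63 (0.000544), and Tac1 at -0.45 (0.0281), and on day 8 Penk at -1.76 (0.0027) and Tac1 at -0.49 (0.0325). In untreated cells from day 8 to day 12, 1 of the 14 rose, Sst by 1.85, and 3 fell, Penk by 1.58, Reln by 0.58 and Cort by 0.28, with a median of -0.04.

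The change on day 12 was not limited to genes of the GABAergic lineage. Among glutamatergic genes, 6 of 14 measured were lower and none higher on day 12, with a median of -0.20; Fezf2 was 2.92-fold and Neurod1 2.68-fold lower. Of 17 measured pan-neuronal genes 16 were lower and none higher, with a median of -0.94, and of 15 neural progenitor genes 12 were lower and none higher, with a median of -0.88. The mean of the pan-neuronal list ran from 9.23 to 9.65 on untreated and from 8.25 to 8.67 on treated day 12 arrays, and on day 8 from 7.90 to 8.09 and from 7.54 to 7.82. The pluripotency list was higher in treated cells on day 12, from 9.07 to 9.27 against 8.25 to 8.56, with 6 of 10 genes higher and none lower. On day 8 it had 4 of 10 lower and none higher, with a median of -0.62 and overlapping list means in the 2 groups. On day 12 the glutamatergic, pan-neuronal and neural progenitor lists thus moved in the same direction as Gad1, Gad2, Dlx1 and Dlx5. The pluripotency list moved in the other direction. The part of these lists in the differences of those genes was not tested.

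**Figure D4:**
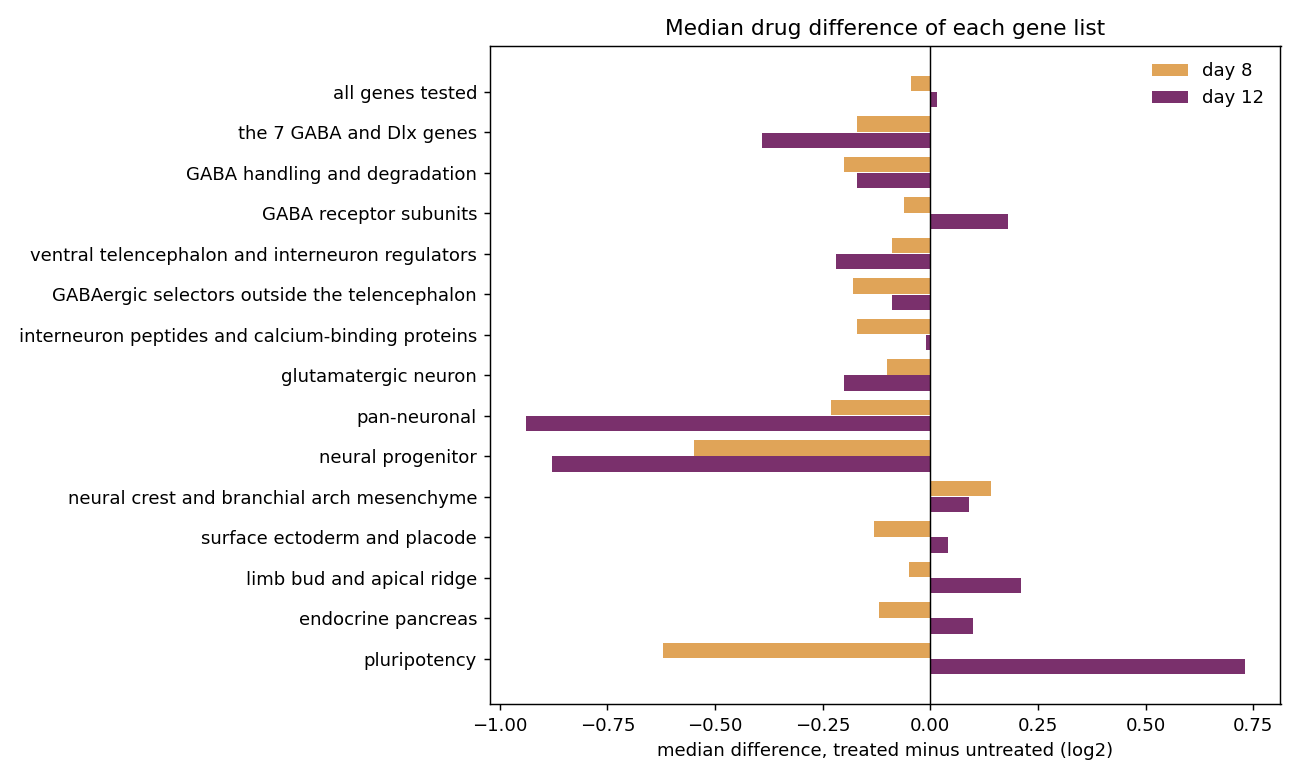
Median treated minus untreated log2 difference (horizontal axis) of the 7 genes, of each gene list over its measured members and of all 19938 genes, on day 8 (orange) and day 12 (purple). The 7 genes have medians of -0.17 and -0.39, between the near-zero medians of all genes (-0.044 and 0.016) and, on day 12, the pan-neuronal and neural progenitor medians of -0.94 and -0.88.

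Other tissues known to express Dlx or Gad genes were examined through their own genes. The neural crest and branchial arch mesenchyme list, 17 of 20 measured, had 7 genes higher and 1 lower on day 8 and 6 higher and 2 lower on day 12, and its mean ran from 8.89 to 9.04 on treated and from 8.79 to 8.83 on untreated day 12 arrays. The limb bud list of 14 genes had 5 higher and 4 lower on day 12, and its mean was 8.66 to 8.72 against 8.33 to 8.45. Surface ectoderm and placode genes, 19 of 20 measured, had 1 higher and 4 lower, with overlapping means of 8.64 to 8.80 and 8.71 to 8.85. Endocrine pancreas genes, 11 of 12 measured, had 1 higher and 1 lower, with means of 7.13 to 7.35 and 7.21 to 7.32. The part of these tissues in the differences of the 7 genes was not tested. No listed defining marker can be called absent without detection calls.

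Across the 24 arrays, which share groups and therefore most of their variation, Dlx1, Dlx2 and Dlx5 ran together and Gad1 ran apart. Pearson's r was 0.78 between Dlx1 and Dlx2, 0.80 between Dlx1 and Dlx5, 0.81 between Dlx2 and Dlx5 and 0.74 between Dlx5 and Dlx6. Gad2 had r of 0.61, 0.66 and 0.62 with Dlx1, Dlx2 and Dlx5, and 0.02 with Gad1. Gad1 had r from -0.63 to -0.43 with the 4 Dlx genes.

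The genes most like each of the 7 over the same 24 arrays, by Pearson's r among all genes, were of different kinds. For Dlx1 they were Syt1 and Hes5 (both 0.95), then Cdh22, Nr2e1 and Ptpro (all 0.94): Syt1 encodes the vesicle calcium sensor synaptotagmin, Hes5 is a Notch target of neural progenitors and Nr2e1 a forebrain stem cell factor. Dlx5 was closest to Plppr5 and Cxxc4 (both 0.96), and Gad2 to Pcbp4 (0.88), Emx2 (0.86), Patz1 (0.85), Ajap1 (0.84) and Tal2 (0.83). Emx2 is a dorsal forebrain homeobox gene. Gad1 was closest to Rprd1a (0.94) and to Mrpl57, Agpat3, Lrba and Apln (all 0.93), Dlx2 to Ptprn2 and Shf (both 0.88), Dlx6 to Shf (0.87) and Slc32a1 to Pldi (0.91), Wrnip1, Cdhr3, Scara5 and Marco (all 0.90). The last group includes airway and macrophage genes. The same arrays chose these genes, so no test is given for them.

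Of the 10 genes next to these loci in the RefSeq table, 3 were lower on day 12, beside 10.4% of all genes. Beside Gad1, Erich2 was 0.36 lower on day 12 (adjusted p = 0.0275) and Gorasp2 differed by 0.14 (0.127). Beside Gad2, Myo3a was 0.48 lower on day 8 (0.0309) but differed by 0.04 on day 12 (0.866), and Apbb1ip did not pass on either day. Beside the Dlx1 and Dlx2 locus, Metap1d differed by 0.06 and Platr26 by 0.13 on day 12, neither passing, and Platr26 was 0.29 lower on day 8 (0.033). Beside Dlx5 and Dlx6, Sem1 was 0.28 lower (0.011) and Sdhaf3 differed by -0.26 (0.138). Beside Slc32a1, which did not pass, Actr5 was 0.32 lower on day 8 (0.031) and 0.31 lower on day 12 (0.0231).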

How the data were processed

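Total RNA of 24 embryoid body samples was hybridised to Affymetrix Mouse Gene ST 1.0 arrays. The deposited values are log2 signals, made by RMA in Affymetrix Expression Console per the submitters' processing notes; the genome build of the array annotation is not given in the sources used here. Probe sets (35556) were named through the platform annotation: 21789 had 1 symbol, 1621 several and 12146 were not listed. The probe set with the highest mean stood for a gene (999 genes had more than 1). One mean per group was fitted over all 24 arrays with limma 3.58.1 in R 4.3.3 (16 residual and 5.58 prior degrees of freedom), with Benjamini-Hochberg adjustment over 19938 genes in each contrast. On data simulated for the day 12 drug contrast over 19938 genes, 97% of log2 changes of 1 and 100% of 2 were recovered, with 12 false calls. No smaller change was simulated, while the drug differences of the 7 genes reached at most -0.62 (Gad2 on day 8). The recovery of changes of that size is therefore not known. The members and gene lists were chosen with earlier results of these data known. Named list genes were up to 4 per list with the smallest p in the day 12 drug contrast or from untreated day 8 to day 12; genes named for day 8 were added after their values were seen. Arrays are numbered 1 to 3 per the labels, which name 3 independent experiments; deviations of same-numbered treated and untreated arrays correlated above 0.1 in every pair on days 6, 8 and 12 (0.107 to 0.553), not on day 4 (-0.053 to 0.191). For untreated day 12 replicate 1 a treated array of another number correlated more (0.264) than that of the same number (0.118). The number of arrays limits the precision. Alternatives are in the closing section.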

Additional observations from a re-analysis of the deposited data

Results flagged for a closer look

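Dlx2 was the only one of the 7 genes whose arrays were split by treatment in opposite directions on 2 days. On day 6 every treated array lay above every untreated one, with a difference of 0.13 (limma, adjusted p = 0.813). On day 12 every treated array lay below every untreated one, with a difference of -0.35 (adjusted p = 0.0792). Neither difference passed, and the change between these 2 days was not tested. Among all genes, 12.1% had all treated arrays above on day 6 and 17.1% all below on day 12.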

How the results depend on the processing

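Over 1372 tests of the 7 genes under another setting, 1235 kept direction and call, 59 lost a call, 39 gained one and 39 changed direction, the last all among differences that had not passed. The drug comparisons at days 4 and 6 gave 0 genes throughout and that at day 12 gave 3 to 5 of 7 without 1 array (4 with all). The day 8 drug comparison gave 2 genes, 0 with only the compared groups (limma, where 4 had an unadjusted p under 0.05) and 1 to 3 without 1 array. Untreated day 8 against day 6 gave 7 genes and 3 to 7 without 1 array. In treated cells, day 6 against day 4 gave 3 genes, and 5 with array weights; day 8 against day 6 gave 5, and 2 to 4 without 1 array; day 12 against day 8 gave 1, with 2 under array weights, 0 with only the compared groups (2 at an unadjusted p under 0.05) and 0 to 2 without 1 array; and day 12 against day 4 gave 4, and 2 to 4 without 1 array. The interaction of days 6 and 8 gave 0 genes (2 at an unadjusted p under 0.05), 2 with array weights, 2 with the replicate block and 0 to 2 without 1 array, and that of days 8 and 12 gave 0 (3 unadjusted), 1 with array weights, 1 with the replicate block and 0 to 1 without 1 array; the replicate block changed no other call of the 7 genes. The arrayWeights estimate stopped before full convergence. Filtering at the 40th percentile left only Gad1, so it gives no count.

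Directions changed as follows. With array weights Dlx2 gave 0.13 on day 4 and 0.15 on day 8, Dlx5 -0.01 on day 4, Gad2 0.01 on day 6, and in treated cells Gad2 -0.02 from day 6 to 8 and Dlx2 -0.07 and Dlx6 0.08 from day 8 to 12; the interaction of days 6 and 8 gave 0.03 for Dlx2 and -0.02 for Dlx6. Quantile normalization and centring each gave 0.01 for Dlx2 on day 8. Without 1 array the drug difference ranged on day 4 from -0.10 to 0.02 (Slc32a1), -0.15 to 0.05 (Dlx2) and -0.13 to 0.07 (Dlx6), on day 6 from -0.13 to 0.04 (Gad2), -0.10 to 0.00 (Dlx1) and -0.04 to 0.16 (Dlx6), on day 8 from -0.10 to 0.16 (Dlx2) and -0.08 to 0.19 (Dlx5), and on day 12 from -0.02 to 0.18 (Slc32a1). It ranged for untreated day 12 against day 8 from -0.09 to 0.09 (Gad2), for treated day 8 against day 6 from -0.06 to 0.12 (Gad2), and for treated day 12 against day 8 from -0.24 to 0.04 (Gad1), -0.06 to 0.19 (Dlx2) and -0.11 to 0.04 (Dlx6). The interaction of days 6 and 8 ranged from -0.24 to 0.03 (Dlx2), 0.00 to 0.27 (Dlx5) and -0.03 to 0.18 (Dlx6), and that of days 8 and 12 from -0.09 to 0.19 (Gad1) and 0.00 to 0.19 (Gad2). The causes were not tested. Among list counts, 905 of 1092 stayed within 1.5 times the reported one.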

Other observations

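Of the GABA receptor genes that were higher in treated embryoid bodies on day 12, 3 of the GABA-A type lie in a row on the X chromosome. RefSeq's gene table gives the order Gabre, Magea10, Gabra3 and Gabrq, a set singled out after its values were seen. Gabra3 read 11.28, 9.99 and 10.88 on treated day 12 arrays and 9.14, 8.35 and 8.68 on untreated ones. Its groups did not differ by the test on days 4, 6 and 8 (differences -0.11, -0.44 and -0.61, adjusted p = 0.963, 0.49 and 0.108), and in treated cells it rose 5.63-fold from day 8 to day 12 (limma, 2.49, SE 0.24, adjusted p = 4.29e-08) where untreated cells read -0.11 (0.735). Gabre, which had risen in both series by day 6, read 9.66, 8.91 and 9.10 against 7.95, 8.34 and 7.97 on day 12, and Gabrq 6.99, 6.42 and 6.92 against 6.17, 6.20 and 6.29. For all 3 genes each treated day 12 array lay above each untreated one. The share of all genes split upwards in this way on day 12 was not counted. In the other direction 17.1% of all genes were split, and 7.49% of all genes were higher by the test. Magea10, which stands between Gabre and Gabra3, differed by 0.18 (adjusted p = 0.256). The highest of the treated day 12 arrays for all 3 receptor genes was replicate 1. That array also had the lowest Dlx1, Dlx2, Gad2 and Slc32a1 signals of its group. It was not the lowest for Gad1 (7.95, against 7.89 in replicate 2) or Dlx5 (7.39, against 7.37 in replicate 3). For Dlx6 it read 7.45, as did replicate 3.

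Genes with signals between 7.0 and 7.48, the range of the 6 dimmer genes, had a drug difference with a median of -0.09 on day 8 and 0.07 on day 12. For them the interaction between these days had a median of 0.15, against 0.033 for all genes.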
